A study of Rattus norvegicus with 16 samples.

Results

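The insulin-like growth factor (IGF) axis genes of PCCl3 cells, a differentiated rat thyroid follicular line, were followed after silencing of the transcription factor Pax8. The genes were *Igf1*, *Igf2*, *Igf1r*, *Insr*, *Irs1*, *Igfbp2*, *Igfbp3*, *Igfbp4*, *Igfbp5* and *Igfbp6*, found through the transcript accession of each array probe. All 10 genes had a probe, and together they had 14 of the 41012 probes and were 10 of the 8899 genes that could be named. Cells given an siRNA that targets *Pax8* (si*Pax8*) were compared on 2-colour Agilent rat arrays with wild type (wt) cells on 8 arrays, and with cells given a scrambled siRNA (scramble) on 8 others. Each comparison had 4 biological replicates, each hybridized in both dye orientations, with 10 ng/ml siRNA and RNA taken 48 hours after transfection. The labels call the condition without siRNA wild type, the study's methods list cells treated with lipofectamine, and elsewhere the study describes this control as not transfected. Whether these cells met the transfection reagent is not settled by these sources, so any part of transfection in the ratios over wt was not tested. All cells grew with 5% donor calf serum and a hormone mixture that held 1 nM TSH and also insulin. By the study's design scheme, both comparisons share their si*Pax8* samples, so their ratios are not independent and part of any agreement between them is built in.

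IGF1 and IGF2 are secreted growth factors that act through the IGF1 receptor, a tyrosine kinase closely related to the insulin receptor, and both receptors pass their signal to docking proteins such as IRS1. The IGF binding proteins hold most of the IGF outside cells, prolong its life and either block or aid its access to the receptor. In thyroid follicular cells, insulin and IGF signals act together with TSH on growth and on differentiated functions.

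Values are log2 ratios of si*Pax8* over control, as the mean ± SD of 4 replicates, each the average of 2 dye-swapped arrays. Directions rest on the dyes named in the labels; the deposited normalized table holds control over si*Pax8*, and the study's wording of its up- and down-regulated counts may run the other way. A probe passed the test when its limma p, adjusted by Benjamini-Hochberg over all probes, was below 0.005. *Pax8* itself gave log2 ratios over wt of -0.84, -0.57, -0.59 and -0.26 in replicates 1 to 4, and passed the test as lower (-0.56 ± 0.24, adjusted p = 0.000472), although its adjusted p was 0.0056 without replicate 3, 0.0181 with si*Pax8* in Cy3 alone and 0.0386 with Agilent's processed intensities. Against scramble cells *Pax8* gave -0.58, -0.29, -0.12 and -0.007 and did not pass (-0.25 ± 0.25, adjusted p = 0.143). The size of the *Pax8* mRNA reduction on this probe thus differed widely between replicates, and in replicate 4 it was close to 0 against scramble cells. Silencing was tested in the study by immunoblot, which it reports as lower Pax8 protein than in either control. Additional transfections were then made for RNA, and these ratios do not measure protein. On at least 4 of the 8 arrays of the wt comparison, all 10 measured thyroid markers were above background in both channels, as were both leukocyte markers (*Cd68* and *Csf1r*). Of 4 parafollicular C cell markers, *Calca* and *Chga* were above background in wt cells and *Calca* alone in si*Pax8* cells. In both conditions 1 of 6 fibroblast markers (*Col1a2*) was above background and neither of the endothelial markers was.

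Against wt cells, 6 of the 14 probes passed the test, 3 higher and 3 lower. They belonged to *Igfbp3* and *Igfbp5*, which were higher in si*Pax8* cells, and to *Igf2*, *Igf1r* and *Igfbp6*, which were lower. Of all 41012 probes, 15.3% passed in this comparison (7.04% higher and 8.23% lower). Against scramble cells, 2 of the 14 probes passed, 1 of *Igfbp3* and that of *Igfbp5*, both higher, beside 2.11% of all probes (1.22% higher). No probe of the axis passed as lower against scramble cells, where 0.897% of all probes did. The median log2 ratio of the 14 probes was -0.01 over wt and 0.01 over scramble, where that of all probes was -0.0036 and -0.0037. The plot of replicate log2 ratios shows that the axis did not move as a block over wt. *Igfbp3* and *Igfbp5* rose there, whereas *Igf2*, *Igf1r* and *Igfbp6* fell. *Igf1*, *Irs1*, *Igfbp2* and *Igfbp4* were at background, so their ratios near 0 set no limit on a change. Their probes also enter the medians above.

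**Figure D1:**
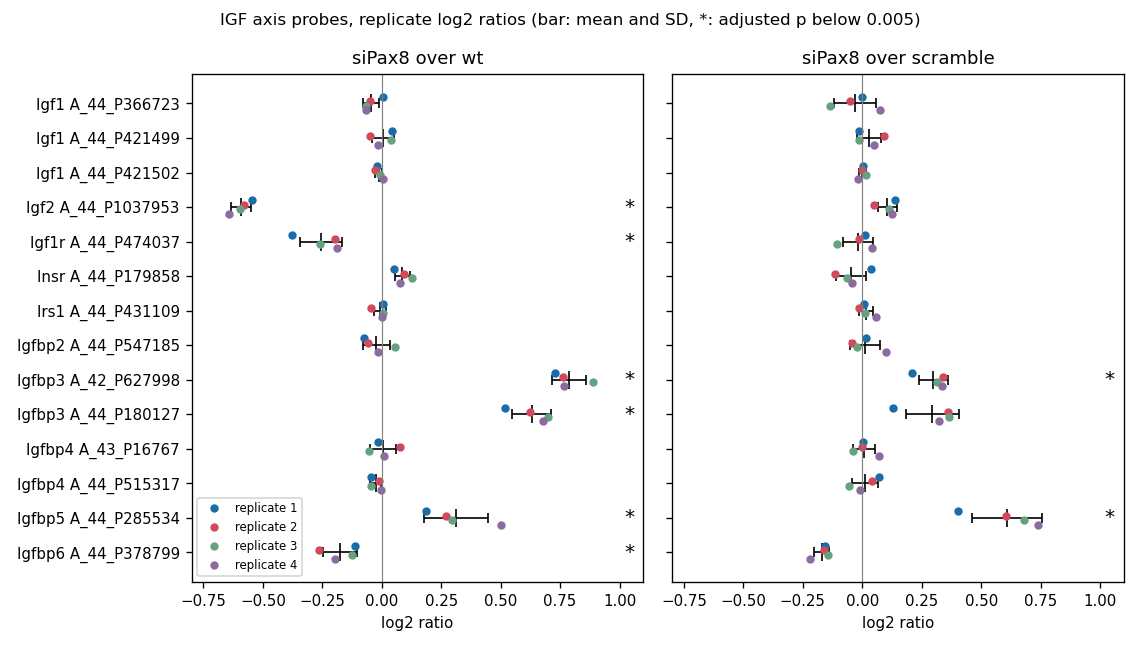
Log2 ratio of si*Pax8* over wt (left) and over scramble (right) for the 14 IGF axis probes, with 1 coloured point per replicate, a bar for the mean and SD, and an asterisk where adjusted p was below 0.005. Both *Igfbp3* probes and *Igfbp5* lie to the right of 0 in all 4 replicates of both panels, and *Igf2* lies left of 0 over wt and right of 0 over scramble.

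*Igf2*, the one IGF ligand above background, fell in si*Pax8* cells relative to wt cells. Its log2 ratios were -0.55, -0.58, -0.60 and -0.64 in replicates 1 to 4. They fell within a narrow band, and the mean was -0.59 ± 0.04, or 66.3% of the wt level (adjusted p = 1.78e-06). Against scramble cells the 4 values were 0.14, 0.05, 0.11 and 0.13. All were slightly above 0, and the mean of 0.11 ± 0.04 did not pass the test (adjusted p = 0.0597, 95% interval 0.04 to 0.17). The comparisons differed by -0.70 (adjusted p = 2.18e-06 for the difference, limma). The difference between the comparisons passed for 2 of the 14 probes, *Igf2* and 1 of *Igfbp3*, beside 3.44% of all probes. The intensities show where this difference lay. The log2 normalized intensity of the *Igf2* probe was 8.67 to 8.74 in wt cells and 7.96 to 8.04 in scramble cells. In si*Pax8* cells it was 8.07 to 8.15 on the arrays with wt RNA and 8.06 to 8.15 on those with scramble RNA. The wt values stood above all others, whereas si*Pax8* and scramble cells lay close together.

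The *Igf2* ratio also depended on the dye orientation. Over wt it was -0.73 with si*Pax8* in Cy5 and -0.46 with si*Pax8* in Cy3, lower in both. Over scramble it was -0.05 and 0.26, so the sign of that small difference changed with the dye, and the value of 0.26 passed the test by itself (adjusted p = 0.0015). The plot by dye orientation shows that the 2 orientations of *Igf2* did not overlap in either comparison.

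*Igf1*, the other IGF ligand, was represented by 3 probes. None of them was well above background on any of the 16 arrays in either channel. Their mean log2 ratios lay between -0.04 and 0.03, with no fold change given because both sides were at background.

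*Igf1r*, the receptor for both IGFs, also fell relative to wt cells. The replicate log2 ratios were -0.38, -0.20, -0.26 and -0.19. All 4 were below 0, with replicate 1 the lowest, and the mean of -0.26 ± 0.09 was 83.7% of the wt level (adjusted p = 0.000885). Without replicate 3 the ratio stayed at -0.26 but its adjusted p was 0.0085. Over scramble the values were 0.01, -0.01, -0.11 and 0.04, on both sides of 0, with a mean of -0.02 ± 0.06 (adjusted p = 0.86, 95% interval -0.09 to 0.06). The comparisons differed by -0.24, which did not pass the test (adjusted p = 0.0127). As for *Igf2*, the log2 intensities of wt cells (9.21 to 9.33) stood above those of scramble cells (8.95 to 9.06) and of si*Pax8* cells (8.95 to 9.05 over all arrays).

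*Insr*, the insulin receptor, was above background on all 16 arrays but dim. Its log2 ratios over wt were 0.05, 0.09, 0.13 and 0.08, all above 0. The mean of 0.09 ± 0.03 did not pass the test (adjusted p = 0.0569, 95% interval 0.02 to 0.15). This interval holds for the main processing only. The ratio was 0.13 with a normexp offset of 16 and 0.27 with Agilent's processed intensities. Neither passed (adjusted p = 0.0608 and 0.248, limma). Over scramble the values were 0.04, -0.11, -0.07 and -0.04, on both sides of 0 (mean -0.05 ± 0.06, adjusted p = 0.513). *Irs1*, the docking protein of both receptors, was not well above background on any array and gave mean log2 ratios of -0.0086 and 0.015, with 15 spots of its 10-spot probe left out as outliers over all arrays.

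**Figure D2:**
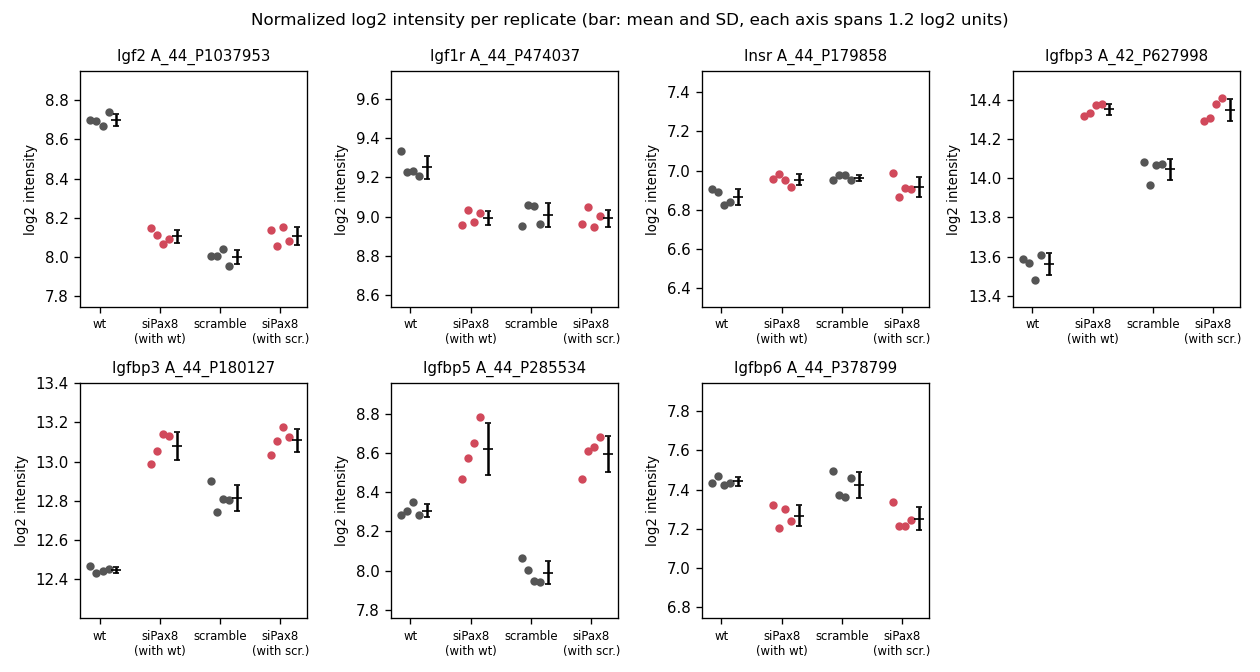
Log2 normalized intensity of the 7 probes above background, by condition, with 1 point per replicate and a bar for the mean and SD; each panel has its own vertical axis of equal span, so panels compare conditions and not genes. The wt values are the highest for *Igf2* and *Igf1r*, scramble cells lie between wt and si*Pax8* cells for *Igfbp3*, and the scramble values are the lowest for *Igfbp5*.

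Among the binding proteins, *Igfbp3*, which encodes the main IGF carrier of serum, rose in si*Pax8* cells against either control. Its probe A_42_P627998 gave log2 ratios over wt of 0.73, 0.76, 0.89 and 0.77. These values lay far from 0 relative to their spread, with a mean of 0.79 ± 0.07, or a 1.73-fold level (adjusted p = 7.7e-07). Over scramble the same probe gave 0.21, 0.34, 0.31 and 0.33. All 4 were above 0 but below every value over wt, and the mean was 0.30 ± 0.06, or 1.23-fold (adjusted p = 0.00223). This call was lost when replicate 2, 3 or 4 was left out, with adjusted p of 0.023, 0.0179 and 0.0098 at ratios of 0.29, 0.29 and 0.29.

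The other *Igfbp3* probe, A_44_P180127, was spotted 10 times on each array and 1 of its spots was left out as an outlier on the wt arrays. It gave 0.52, 0.62, 0.70 and 0.68 over wt, a mean of 0.63 ± 0.08 or 1.55-fold (adjusted p = 3.78e-06). Over scramble it gave 0.13, 0.36, 0.37 and 0.32, with replicate 1 the lowest. The mean of 0.30 ± 0.11 had the size of the first probe's, but its adjusted p of 0.00842 did not pass the test. The comparisons differed by 0.49 for A_42_P627998 (adjusted p = 0.000111) and by 0.33 for A_44_P180127 (adjusted p = 0.00514, just above the threshold). For both probes the scramble intensities lay between those of wt and si*Pax8* cells. The ranges of log2 intensity for A_42_P627998 were 13.48 to 13.61 in wt, 13.97 to 14.08 in scramble and 14.29 to 14.41 in si*Pax8* cells, with no overlap.

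*Igfbp5*, a binding protein that also sticks to extracellular matrix, had, unlike *Igfbp3*, a larger ratio over scramble than over wt cells. Over wt its log2 ratios were 0.18, 0.27, 0.30 and 0.50. All were above 0 with a wide spread, and the mean was 0.31 ± 0.13, or 1.24-fold (adjusted p = 0.00112). Over scramble they were 0.40, 0.61, 0.68 and 0.74, a mean of 0.61 ± 0.15 or 1.52-fold (adjusted p = 0.00121). Under each replicate number the ratio over scramble exceeded that over wt. That gap of -0.29 did not pass when the comparisons were taken as independent (adjusted p = 0.0423, limma). It passed when same-numbered replicates were paired (adjusted p = 0.00161, limma on the 4 paired differences). It also passed in a limma fit to single arrays with the replicate number as a block and a dye term (adjusted p = 0.00229). The comparisons share si*Pax8* samples, but the correlations between same-numbered replicates did not show that the numbers pair them, so the call of this difference depends on the pairing. Without replicate 2 or 3 neither call held, with adjusted p of 0.0068 and 0.0093 over wt and of 0.014 and 0.0116 over scramble. Replicate 4, in which the *Pax8* probe fell least, had the highest *Igfbp5* ratio in both comparisons. Replicate 1, in which that probe fell most, had the lowest. Both *Igfbp3* probes were also lowest in replicate 1 in both comparisons, but their highest ratios were in replicate 2 or 3. Over wt, *Igf1r* changed most in replicate 1 (-0.38), whereas *Igf2* changed most in replicate 4 (-0.64). With 4 replicates no correlation was computed, and a link between these ratios and the size of the *Pax8* reduction was not tested. The log2 intensities were 7.94 to 8.06 in scramble, 8.28 to 8.35 in wt and 8.47 to 8.78 in si*Pax8* cells.

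*Igfbp6*, a binding protein that prefers IGF2, was lower by a similar amount in both comparisons. Over wt the ratios were -0.11, -0.27, -0.12 and -0.20, a mean of -0.17 ± 0.07 or 88.6% of the wt level (adjusted p = 0.00462). Over scramble they were -0.16, -0.16, -0.15 and -0.22, a mean of -0.17 ± 0.03 (adjusted p = 0.00948), which did not pass. All 8 values were below 0, and the comparisons differed by -0.0047 (adjusted p = 0.976). Because the comparisons share si*Pax8* samples, these are not 8 independent values. The call over wt was close to the threshold and was lost without replicate 2, 3 or 4 (adjusted p of 0.0269, 0.0164 and 0.0273). It was also lost with loess alone (adjusted p = 0.0069), with dim probes removed (adjusted p = 0.0052) and with Agilent's processed intensities (ratio -0.41, adjusted p = 0.0239). The *Igfbp6* ratio depended on the dye as well. Over wt the Cy5 arrays of si*Pax8* gave -0.24 and the Cy3 arrays -0.11 (adjusted p = 0.242 for the latter alone), and over scramble they gave -0.23 and -0.11. On the Cy3 arrays of replicate 1 it was slightly above 0, at 0.05 over wt and 0.01 over scramble. *Igfbp2*, which lies next to *Igfbp5* in the rat genome, was not well above background on any array. Of the *Igfbp4* probes, A_43_P16767 was above background on no array, and A_44_P515317 on 1 array in each channel of the wt comparison. The mean log2 ratios of these genes lay between -0.03 and 0.01.

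**Figure D3:**
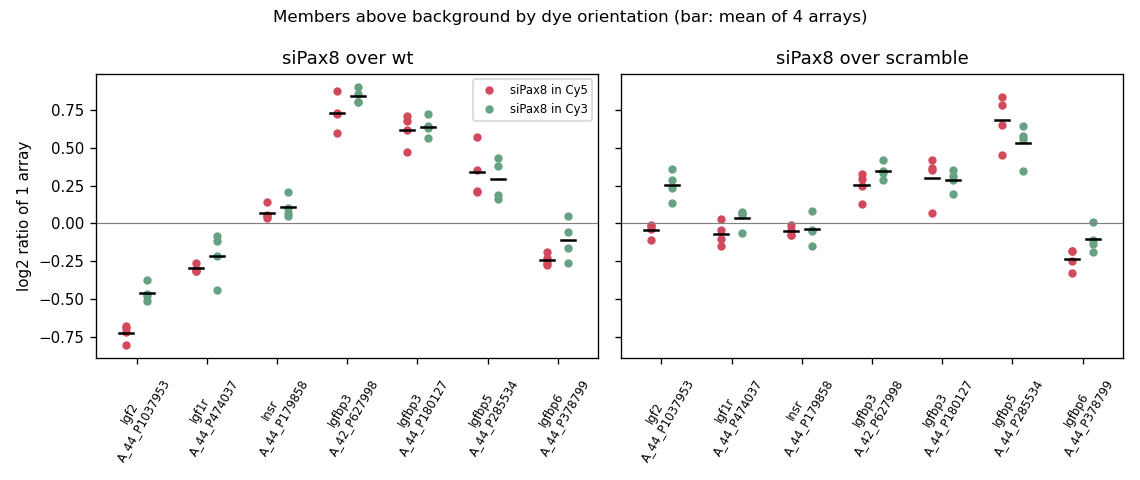
Log2 ratio of each single array for the 7 probes above background, with si*Pax8* in Cy5 (red) or Cy3 (green), over wt (left) and over scramble (right); bars are means of 4 arrays. The orientations of *Igf2* are apart in both panels, whereas *Igfbp3*, *Igfbp5* and *Igf1r* over wt keep their sign in both.

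Other calls also changed with the orientation or the intensity used. With si*Pax8* in Cy3 alone, the calls over wt were lost for *Igf1r* (-0.21, adjusted p = 0.0487) and *Igfbp5* (0.29, adjusted p = 0.00867). With si*Pax8* in Cy5 alone, the calls over scramble were lost for *Igfbp3* A_42_P627998 (0.25, adjusted p = 0.0224) and *Igfbp5* (0.68, adjusted p = 0.00513). With Agilent's processed intensities all 4 of these calls were lost, with adjusted p of 0.0318 and 0.0222 over wt and of 0.0307 and 0.0354 over scramble in the same order, and each ratio kept its sign.

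Within each slide the ratios given here kept their sign. Each of the 4 slides held 2 arrays of each comparison, and within slides the log2 ratio over wt ranged from -0.61 to -0.57 for *Igf2*, from -0.35 to -0.19 for *Igf1r* and from -0.23 to -0.09 for *Igfbp6*. For *Igfbp5* it ranged from 0.20 to 0.37 over wt and from 0.55 to 0.67 over scramble, and for *Igfbp3* A_42_P627998 from 0.70 to 0.84 and from 0.27 to 0.33.

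The sequences before the transcription starts of *Igfbp3* and *Igfbp5*, which were higher in both comparisons, and of *Igf2*, which was lower against wt cells, are given for reference. They are the 250 bases upstream of the start in RefSeq on the assembly GRCr8, 5′ to 3′ on the strand of the gene (the minus strand in each case). For *Igf2*, which has 2 starts in the table, the start with a motif match is shown. Capitals mark a match to the motif GGGCGG (the Sp1 box), which overlaps none of the other motifs there.
Igfbp3 (chr14:86277945-86278194): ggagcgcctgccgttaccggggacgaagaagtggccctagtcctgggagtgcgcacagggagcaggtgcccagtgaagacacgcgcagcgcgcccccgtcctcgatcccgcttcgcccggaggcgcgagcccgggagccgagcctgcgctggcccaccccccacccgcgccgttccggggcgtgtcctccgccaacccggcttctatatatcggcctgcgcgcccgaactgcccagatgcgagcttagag
Igfbp5 (chr9:81914188-81914437): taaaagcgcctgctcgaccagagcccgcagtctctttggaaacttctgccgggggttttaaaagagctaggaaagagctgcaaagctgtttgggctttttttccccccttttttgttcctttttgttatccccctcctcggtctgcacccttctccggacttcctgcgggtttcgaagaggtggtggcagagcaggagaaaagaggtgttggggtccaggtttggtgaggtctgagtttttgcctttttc
Igf2 (chr1:207250476-207250725): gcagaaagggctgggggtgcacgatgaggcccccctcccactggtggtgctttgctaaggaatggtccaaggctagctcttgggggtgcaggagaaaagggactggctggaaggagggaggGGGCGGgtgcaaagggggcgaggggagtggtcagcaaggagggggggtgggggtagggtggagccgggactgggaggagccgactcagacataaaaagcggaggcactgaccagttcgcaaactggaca
All 10 genes had an entry in the promoter table, with 11 entries in total. Motifs were searched on both strands as exact letters. The core GCGTGAC of the element bound by Pax2, Pax5 and Pax8 proteins was in 0 of the 11 entries and in 1.74% of the 33469 promoter entries of the table. GGGCGG was in 4 of the 11 (*Igf2*, *Igf1r*, *Irs1* and *Igfbp2*) and in 30.5% of all. TATAAA was in 1 (*Igfbp4*) and in 12.9% of all, and the AP-1 element TGAGTCA was in 0 and in 4.05% of all. These are matches of letters within a short window and say nothing of binding.

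Over the 8 replicate log2 ratios, the named genes most like *Igfbp3* A_42_P627998 were *Rsrp1*, *Ctsa* and *Ghr*, with root mean square differences of 0.10 on the log2 scale for each. Those most like *Igfbp5* were *Fhl1*, *Sparc* and *Eno2*, with 0.12 for each. All of these genes were picked for this likeness, so their similar ratios are no separate result. *Sparc*, which encodes a matrix glycoprotein, gave 0.42 over wt and 0.56 over scramble. In the same order *Fhl1* gave 0.32 and 0.45, *Eno2* 0.35 and 0.49, *Rsrp1* 0.88 and 0.20, and *Ctsa* 0.68 and 0.30. *Ghr*, the growth hormone receptor, which drives hepatic *Igf1* output, gave 0.72 and 0.35 with the probe concerned.

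Beyond the 10 genes, 72 other genes of the pathway were listed and 49 were measured. Over wt 23 of the 49 passed the test with at least 1 probe, 11 higher and 12 lower, where 20.8% of all named genes did (9.52% higher and 11.3% lower). Most of the 49 were above background in wt cells, whereas the share over all genes includes genes at background. With dim probes removed, the share of all probes that passed over wt was 25.7% in place of 15.3%. Over scramble 2 of the 49 did, 1 in each direction, where 3.87% of all named genes did (2.12% higher and 1.74% lower). The median gene of the list gave -0.036 and 0.0087, where that of all named genes gave -0.0052 and -0.0034 in the same order. The difference between the comparisons passed for 5 of the 49, where it passed for 5.79% of all named genes.

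Of the other ligands, receptors and carriers, 2 of 5 were higher and 1 was lower over wt. For this and the following lists, 9.52% of all named genes were higher and 11.3% lower over wt. Over scramble 3.87% passed in either direction, and lists this short were not tested as sets. *Igf2r*, the receptor that clears IGF2 without a growth signal, gave 0.45 ± 0.07 over wt (adjusted p = 2.16e-05) and 0.36 ± 0.13 over scramble (adjusted p = 0.0056, not passed). All 8 of its replicate values were above 0, in comparisons that share their si*Pax8* samples. *Igfals*, the subunit that stabilizes complexes of IGF with IGFBP3 in serum, was lower over wt by -0.44 ± 0.06 (adjusted p = 1.72e-05) and gave -0.19 ± 0.07 over scramble (adjusted p = 0.0154).

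All 3 measured proteases and protease inhibitors of the binding proteins passed over wt and none over scramble, where 20.8% and 3.87% of all named genes did. *Htra1*, a secreted protease that cleaves IGFBPs, was lower by -0.51 ± 0.06 over wt (adjusted p = 6.75e-06), and its difference between the comparisons passed (-0.49, adjusted p = 7.86e-05). The stanniocalcins, which inhibit the IGFBP protease PAPP-A, moved in opposite directions over wt. *Stc1* gave -0.30 ± 0.07 (adjusted p = 0.000222) and *Stc2* gave 0.35 ± 0.09 (adjusted p = 0.000162), and both differed between the comparisons (adjusted p = 0.00209 and 0.000281).

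Of 6 receptor adaptors, *Shc1*, which links the receptors to Ras, was the one gene that passed over wt. Its probes gave -0.37 ± 0.03 and -0.61 ± 0.08 over wt (adjusted p = 2.21e-05 and 3.96e-06) and 0.05 ± 0.13 and 0.08 ± 0.25 over scramble, and the comparisons differed for both (adjusted p = 0.00117 and 0.0017). In the PI3K, Akt and mTOR arm 3 of 18 genes were higher and 3 lower over wt, and none passed over scramble. *Pik3r3*, a PI3K regulatory subunit, had the largest ratio of this arm over scramble (0.43 ± 0.38, adjusted p = 0.0939), carried by replicates 3 and 4 (0.76 and 0.73). In the Ras and ERK arm 2 of 7 were higher and 1 lower over wt, with the kinase gene *Map2k1* at 0.34 ± 0.12 (adjusted p = 0.000477).

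Negative regulators of receptor signalling were split, with 2 of 6 higher and 2 lower over wt. *Trib3*, a pseudokinase that binds Akt, was higher by 0.59 ± 0.13 (adjusted p = 2.48e-05), and *Socs1*, which restrains cytokine and insulin receptor signalling, was lower by -0.32 ± 0.06 (adjusted p = 0.000101). Of 4 measured regulators of IGF gene expression, *Ghr* and *Stat5a* were the pathway genes that passed in both comparisons. *Ghr* was higher with all 3 of its probes over wt (0.37 to 0.72) and with 2 of 3 over scramble (0.35 for both, adjusted p = 0.00123 and 0.00138). *Stat5a*, a mediator of growth hormone receptor signalling, was lower by -0.39 ± 0.12 over wt (adjusted p = 0.000207) and by -0.48 ± 0.03 over scramble (adjusted p = 0.000188).

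**Figure D4:**
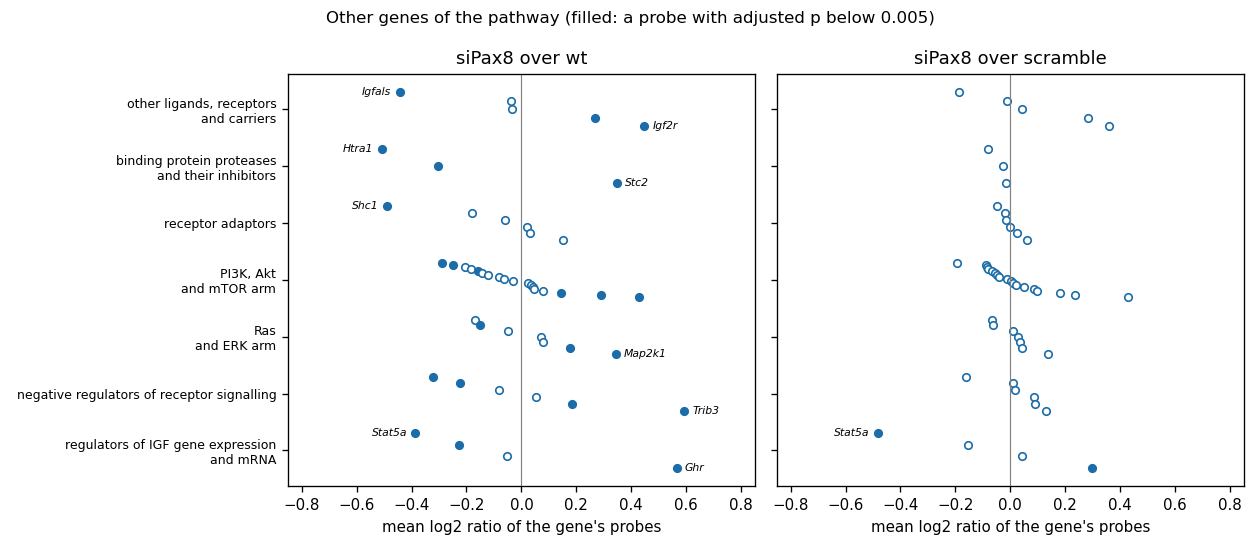
Mean log2 ratio of each of the 49 other pathway genes, by list, over wt (left) and over scramble (right); filled circles have a probe with adjusted p below 0.005, and names are given for filled genes beyond 0.33 outside the PI3K, Akt and mTOR arm. Filled circles lie on both sides of 0 over wt, and *Stat5a* and *Ghr* are the 2 filled over scramble.

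Interferon response genes moved with the wt comparison. Of 11 measured, 10 were higher over wt and 2 over scramble (*Irf7* and *Rsad2*), where 9.52% and 2.12% of all named genes were higher. The median log2 ratios of the 11 were 1.13 and 0.29. The summed intensity of the 15 probes of these 11 genes was 8613 to 9728 in wt cells, 22433 to 27185 in scramble cells and 30907 to 44846 in si*Pax8* cells. Thyroid markers moved the other way. Leaving out *Pax8* itself, the silenced gene, which is on the list, 8 of the 9 others were lower over wt and 2 over scramble (*Tg* and *Cdh16*). Of all named genes, 11.3% were lower over wt and 1.74% over scramble. The summed intensity of the 9 thyroid markers was 190433 to 203778 in wt, 149431 to 177613 in scramble and 120613 to 131179 in si*Pax8* cells. Of the 2 leukocyte markers, *Cd68* was higher over wt (0.30 ± 0.12, adjusted p = 0.000797) and *Csf1r* gave 0.0073 ± 0.09, and neither passed over scramble. Their summed intensity was 245 to 273 in wt, 284 to 293 in scramble and 274 to 307 in si*Pax8* cells. None of the C cell, fibroblast and endothelial markers passed in either comparison. The part of these shifts in the *Igf2*, *Igf1r* and binding protein values was not tested, and in RNA from whole cultures fewer cells of a kind and less RNA per cell cannot be told apart.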

How the data were processed

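The labels gave the condition and dye of each channel and the replicate number. The authors deposited scanner files with fluorescence intensity (mean and median background, not normalized), Agilent's dye-normalized intensity and its log10 ratio of Cy5 over Cy3, and 1 table of normalized log2 ratios. That table correlated with the ratios computed here at -0.999 to -0.993, so its ratios run from control to si*Pax8* and were turned; its column medians were -0.0007 to 0.0083, and its background correction is not given in the sources used here. Agilent Feature Extraction was version 10.1.1.1 per the file headers and an earlier one in the methods.

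Of 45018 spots per array, 1639 were controls and 112 to 215 were outliers. Between 52% and 60.8% of spots were well above background, and the number of arrays limits the precision. Background was corrected with normexp (offset 50), followed by loess within arrays with controls and outliers at weight 0. Controls were then removed and the arrays quantile normalized, in limma 3.58.1 under R 4.3.3. The offset pulls the log2 ratios of dim probes towards 0. Outlier spots were then left out, and spots of a probe and dye-swapped arrays of a replicate were averaged. limma (lmFit, eBayes) was fitted to each comparison separately, on 41012 probes, and to both for their difference, with the study's threshold of 0.005. The fit was tested on simulated data. Same-numbered arrays of opposite dye deviated together (correlations of 0.12 to 0.58); across comparisons the correlations were 0.40, 0.18, 0.04 and 0.57, so the pairing there was used only as an alternative. Probes were named through RefSeq accessions of GRCr8 (10768 named, 30244 not), and probe coordinates are not given.

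The members and lists were chosen with earlier results of these data known. The genes named are the 10 members, *Pax8*, genes of each list that passed in both comparisons or had its largest ratio, and the 3 nearest patterns of members that passed in both; *Igfals* and *Stc1* were added after their values were seen, and leaders of the marker lists are named only beside a result. One gene that the rule names is not reported here. Alternatives covered background, normalization, dye, blocks, filter, prior, threshold and left-out replicates.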

Additional observations from a re-analysis of the deposited data

Results flagged for a closer look

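Among the 28 sets of 4 replicate values, 1 had a replicate far from the others, *Irs1* over wt, in which replicate 2 gave a log2 ratio of -0.0452 while the other 3 lay at 0.00 to 0.01. About 1 such set in 20 is flagged by chance, and this probe was not above background.

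The difference between the comparisons (the log2 ratio over wt minus that over scramble) passed the test for *Igf2* (-0.70) and for *Igfbp3* A_42_P627998 (0.49). No explanation was tested for either.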

How the results depend on the processing

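With 1 of the 4 replicates left out, the count of axis probes past the threshold ranged from 3 to 6 over wt, from 0 to 3 over scramble and from 2 to 3 for the difference between the comparisons, and the count of other pathway genes from 14 to 22 over wt and from 1 to 2 over scramble. No called direction turned under any of the alternatives run. With Agilent's processed intensities 3 axis probes over wt and 0 over scramble passed, with 5 and 0 of the other pathway genes; over scramble these values called 0 of all probes by limma, although the ratio of *Igfbp5* was then 0.87 (adjusted p = 0.0354). With si*Pax8* in Cy5 alone 0 axis probes and 1 other pathway gene passed over scramble. With si*Pax8* in Cy3 alone 3 axis probes passed over wt, 4 passed over scramble (both of *Igfbp3*, *Igfbp5* and *Igf2*) and 3 for the difference, and 13 and 6 other pathway genes did. Across comparisons the replicate numbers were not shown to pair the samples. With the replicate block 3 axis probes passed over scramble. With same-numbered replicates paired, 4 passed for the difference (*Igf2*, *Igfbp5* and both of *Igfbp3*). The replicate block gave 6 other pathway genes over scramble. With the replicate block and a dye term these counts were 4, 5 and 7 in the same order. With the slide as a block 4 axis probes and 7 other pathway genes passed over scramble, *Igfbp6* among the former (adjusted p = 0.0024). With both comparisons in 1 fit these counts were 4 and 6, with a normexp offset of 16 the pathway genes were 4, with an intensity trend 3 and 4, and with the probes of a gene averaged the pathway genes were 4. At a threshold of 0.05, 4 axis probes passed over scramble and 5 for the difference, with 8 other pathway genes over scramble. More of all probes passed over scramble as well, beside 2.11% in the main fit. Their share was 4.15% with the replicate block, 5.35% with its dye term and 5.93% with the slide block. It was 4.27% in 1 fit, 8.74% with si*Pax8* in Cy3 alone and 8.96% at the threshold of 0.05. The share for the difference was 3.44% in the main fit, 5.63% with replicates paired, 8.3% with the dye term and 10.4% at 0.05. For the difference, 3 axis probes passed with loess alone, with the deposited table and with dim probes removed, the second *Igfbp3* probe being the added one. Of all probes tested, 3.93%, 4.15% and 5.7% passed there in the same order. The count over all probes moved by over 1.5 times in several alternatives: over wt from 2886 higher and 3374 lower to 437 and 413 with Agilent's values and to 1651 and 1724 without replicate 3; over scramble from 499 and 368 to 1715 and 1870 with si*Pax8* in Cy3 alone and to 84 and 35 without replicate 2. The causes of these shifts were not tested. *Igf1*, *Irs1*, *Igfbp2* and *Igfbp4* were at background, so the arrays set no limit on a change of these genes.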
